A study of Homo sapiens with 8 samples.

Results

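Notch is a cell-to-cell signalling pathway, and the results below follow 10 of its genes in SJRH30 cells placed in 1% oxygen. The genes are the receptors NOTCH1, NOTCH2 and NOTCH3, the ligands JAG1 and JAG2, the nuclear factors RBPJ and MAML1, the target genes HES1 and HEY1, and the inhibitor NUMB. A probe set was taken as a member when the platform annotation gave it exactly 1 of these symbols and no other. That rule found 21 probe sets of 9 genes among the 22277 probe sets of the array, and 22215 probe sets entered the tests once 62 control probe sets were set aside. NUMB had 0 probe sets with its symbol alone and 2 whose annotation lists several symbols, so no value is given for it.

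SJRH30 is an established human cell line from a rhabdomyosarcoma, a tumour of the skeletal muscle lineage, and it stands for 1 line only. Cells were harvested at 0 h, before hypoxia started, and at 6, 12 and 24 h of 1% oxygen in a hypoxic chamber, and each time has 2 arrays that the labels call biological replicates. The cells carried no other treatment or engineered change in the labels, and without normoxic cells at the later times the effects of hypoxia and of hours in culture cannot be told apart. Total RNA was labelled with biotin and hybridised to a 3′ Affymetrix expression array.

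In Notch signalling a JAG or DLL ligand on one cell binds a NOTCH receptor on its neighbour. ADAM proteases and then the γ-secretase complex cut the receptor, and the freed intracellular domain enters the nucleus, where it joins the DNA-binding protein RBPJ and a MAML coactivator to switch on genes such as HES1 and HEY1, which encode repressors. In the skeletal muscle lineage Notch activity is known to hold back differentiation.

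Values are log2 signals of single probe sets, so levels are compared between times for the same probe set and not between genes. Changes are a hypoxic time minus 0 h, and a probe set is said to have risen or fallen when limma's adjusted p was under 0.05 over all 22215 probe sets. Some probe sets are also described by arrays that do not overlap between times. The share of all probe sets with such separation was not counted, so it is a description of the values only. The 2 arrays of a time correlated at 0.997 to 0.999, array medians lay between 6.69 and 6.72, and the interquartile range was 3.63 and 3.68 on the 12 h arrays, against 3.77 to 3.81 on the other 6. The hypoxia marker BNIP3 (201849_at), a mitophagy receptor, was higher by 2.96, 3.33 and 3.31 at 6, 12 and 24 h. The labels call the cells muscle fibroblasts. MYOD1, a myogenic regulator, read 11.89 to 12.09 on the 8 arrays. Brightness is not comparable between probe sets. The 12 muscle marker probe sets were brighter than 0.644% to 97.5% of all probe sets, beside 0.68% to 69.1% for the 13 fibroblast ones. The lowest muscle one was DES 216947_at, and the other DES probe set, 202222_s_at, was at 81.7%. MYF5 207424_at was at 13.4%, and the PAX3 probe sets were at 43.1%, 62.9% and 43.5%. Over the 8 arrays the list mean was 8.24 to 8.39 for muscle and 5.87 to 5.98 for fibroblast. The label was not tested.

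Single marker probe sets were called, and all of those calls were higher than 0 h. In the muscle list these were MYF5 at 12 h (0.35, limma adjusted p = 0.0314) and MYOG at 24 h (0.31, 0.0222), but at 24 h 4 of the 12 probe sets were above 0 h and the median was -0.05. The MYF5 probe set was dim, with means of 4.12 at 0 h, 4.47 at 12 h and 4.09 at 24 h. The fibroblast collagen gene COL1A1 was called on 202311_s_at at 24 h (0.42, 0.00832), the epithelial gene EPCAM on 201839_s_at at 24 h (0.41, 0.0192), and the endothelial receptor gene TEK on 206702_at at 6 h (0.31, 0.0432) and 24 h (0.37, 0.00789). At 24 h these were 1 of 13 fibroblast, 1 of 4 epithelial and 1 of 7 endothelial probe sets, of which 9, 3 and 4 were above 0 h. Their medians were 0.08, 0.06 and 0.15. Of all probe sets, 1.85%, 6.36% and 6.86% were called higher at 6, 12 and 24 h. The mean of the 7 endothelial probe sets was 5.31 to 5.41 on the 6 hypoxic arrays and 5.21 and 5.27 at 0 h, and 0 of the 5 leukocyte probe sets were called. The marker calls were not followed under other settings or with arrays left out. The part of these markers in the Notch results was not tested.

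At 6 h limma called 0 of the 21 member probe sets, against a background of 1.85% of all probe sets called higher and 0.855% called lower, and 6 members were higher and 0 lower at an unadjusted p under 0.05, as were 8.35% and 9.09% of all probe sets. By 12 h, 5 member probe sets of 4 genes (NOTCH1, NOTCH3, JAG2 and RBPJ) had risen and 0 had fallen, where the background was 6.36% higher and 9.85% lower. A JAG1 probe set was called lower at 12 h after a further quantile normalization, after centring each array and with the intensity trend. JAG2 209784_s_at was called higher at 12 h under these settings, under both filters on dim probe sets and with a replicate block. By 24 h, 5 probe sets of 3 genes (NOTCH3, RBPJ and HES1) had risen and 0 had fallen, where the background was 6.86% higher and 7.8% lower. A NOTCH2 probe set was called lower at 24 h without the dimmest 25% or the dimmer 50% of probe sets and with the intensity trend. The 5 of 21 called at each of these times make 23.8% of the members, and 16 were not called. The largest of these changes was 1.52-fold. Members were chosen with earlier results of these data known, so their share beside the background is a description only. At 6 h limma called 5 members when the dimmer 50% of probe sets were left out and 4 when the fit let the variance follow signal intensity. Over all probe sets tested the calls also grew under these settings, from 600 to 2078 and 1911.

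The median change of the 21 probe sets was 0.09 at 6 h, 0.09 at 12 h and -0.03 at 24 h, beside -0.02, 0.00 and -0.02 over all probe sets. The F-test over the 3 hypoxic times called 4 member probe sets, 1 of NOTCH3, 1 of HES1 and both of RBPJ, against 12.6% of all probe sets. The counts rest on the arrays at 0 h. Without replicate 1 or replicate 2 at 0 h the 12 h count was 0 either way, the 24 h count was 1 without replicate 1 and 2 without replicate 2, and the F-test count was 0 either way. The 12 h count was also 3 without either 6 h array and 1 without replicate 2 at 12 h, and the F-test count was 2 without either 6 h array.

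**Figure D1:**
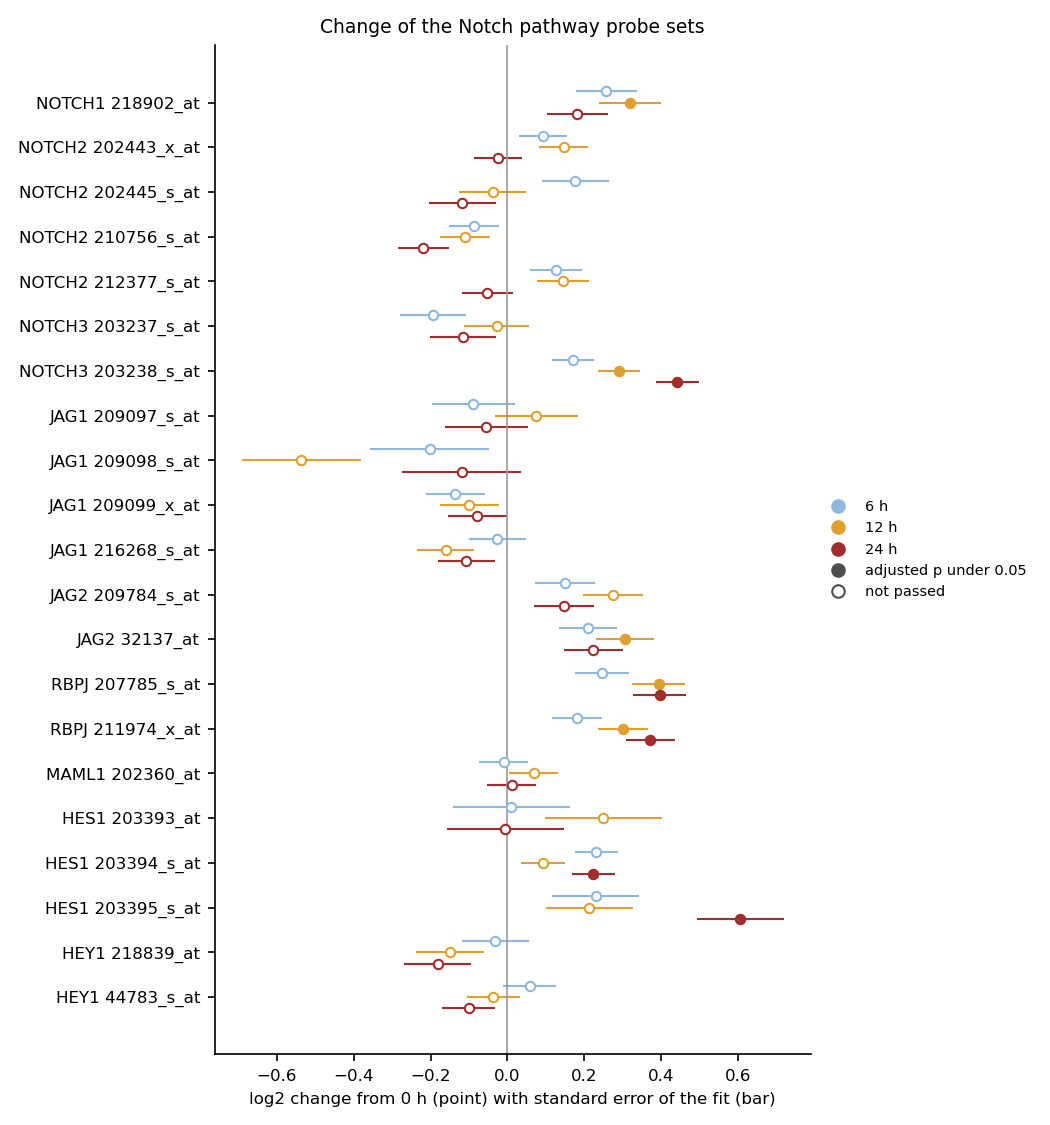
The plot of member changes gives the log2 change from 0 h for each of the 21 member probe sets at 6, 12 and 24 h, with bars for the standard error of the limma fit and filled points for adjusted p under 0.05. The filled points all lie above 0: 5 at 12 h and 5 at 24 h, with none at 6 h.

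Promoter sequence is given for the 3 genes with a probe set called in the F-test, because NOTCH3, RBPJ and HES1 carry the result. Each is the RefSeq window of 300 bases on GRCh38.p14, 250 before the annotated start and 50 from it, printed 5′ to 3′ on the gene's strand. Capitals mark matches on either strand to TGGGAA (the core of the RBPJ site), CACNAG (the N box that HES repressors bind) and ACGTG (a form of the core of the hypoxia response element). The form GCGTG was not searched for and is not marked. Matches in the windows shown do not overlap. RBPJ has 5 annotated starts, and its window is shown at the 1 start that holds the RBPJ core, chosen after the matches were seen.
HES1, chr3:194135898-194136197, plus strand: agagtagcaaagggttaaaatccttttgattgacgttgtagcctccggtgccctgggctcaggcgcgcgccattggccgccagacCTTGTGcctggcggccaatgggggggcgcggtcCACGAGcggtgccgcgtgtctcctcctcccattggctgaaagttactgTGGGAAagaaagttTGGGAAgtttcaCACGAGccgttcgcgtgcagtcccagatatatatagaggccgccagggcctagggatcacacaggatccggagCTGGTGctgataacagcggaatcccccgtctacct
RBPJ, chr4:26319496-26319795, plus strand: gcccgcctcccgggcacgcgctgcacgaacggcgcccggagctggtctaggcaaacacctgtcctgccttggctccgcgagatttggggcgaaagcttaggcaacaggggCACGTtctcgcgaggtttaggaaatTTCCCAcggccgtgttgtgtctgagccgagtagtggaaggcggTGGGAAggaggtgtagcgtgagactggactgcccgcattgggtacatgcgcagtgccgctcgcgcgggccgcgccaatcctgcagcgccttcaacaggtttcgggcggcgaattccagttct
NOTCH3, chr19:15200946-15201245, minus strand: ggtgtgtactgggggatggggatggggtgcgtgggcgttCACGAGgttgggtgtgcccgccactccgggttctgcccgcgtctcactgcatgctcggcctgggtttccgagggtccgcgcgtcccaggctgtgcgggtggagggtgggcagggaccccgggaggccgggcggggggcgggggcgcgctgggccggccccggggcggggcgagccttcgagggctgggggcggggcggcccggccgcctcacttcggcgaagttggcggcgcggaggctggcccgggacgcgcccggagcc
The HES1 window holds 2 RBPJ cores, at bases 167 to 172 and 181 to 186, and 4 N boxes. In the RBPJ window there are 2 RBPJ cores, at 136 to 141 and 179 to 184, and 1 ACGTG match at 111 to 115. The RBPJ windows not shown hold no match to TGGGAA or ACGTG. The one that begins at 26163208 holds 2 N boxes, and the rest hold none. For NOTCH3 the window has 1 N box at 40 to 45 and no match to TGGGAA or ACGTG. These short motifs are common: of 35116 RefSeq promoter windows of the same length, 24% hold the RBPJ core, 38% the N box and 21.4% ACGTG. These shares are for single windows and do not apply to the RBPJ window, which was picked from 5 for its match. A match describes letters and not binding.

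Among the receptors, NOTCH3 rose on 1 of its 2 probe sets, and NOTCH1 rose at 12 h. NOTCH3 is known as a receptor of smooth muscle and of muscle progenitors. Its probe set 203238_s_at read 8.14 and 8.11 at 0 h, 8.28 and 8.31 at 6 h, 8.40 and 8.43 at 12 h, and 8.55 and 8.58 at 24 h. Both arrays of each time lay above both of the time before, with an SD of 0.02 at each time. The change was 0.17 ± 0.06 (SE, 2 arrays a time) at 6 h with limma adjusted p = 0.165, 0.29 ± 0.06 or 1.22-fold at 12 h with adjusted p = 0.0132, and 0.44 ± 0.06 or 1.36-fold at 24 h with adjusted p = 0.0026. The 24 h call was made with each of the 8 arrays left out in turn. At 12 h it was lost without replicate 1 at 0 h (adjusted p = 0.0783), without replicate 2 at 0 h (0.104) and without replicate 2 at 12 h (0.0603).

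The step between the hypoxic times did not pass: 24 h was higher than 6 h by 0.27 ± 0.06 with limma adjusted p = 0.0621. The second NOTCH3 probe set, 203237_s_at, did not follow the first. It read 6.69 and 6.72 at 0 h, 6.51 and 6.52 at 6 h, 6.56 and 6.80 at 12 h, and 6.54 and 6.65 at 24 h, with changes of -0.19, -0.03 and -0.12 and adjusted p of 0.297, 0.853 and 0.433. The 2 probe sets therefore give changes of opposite sign at every hypoxic time, and the rise in NOTCH3 holds for 203238_s_at only.

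NOTCH1, the receptor known for its mutations in T-cell leukaemia, had 1 probe set, 218902_at. It read 8.29 and 8.17 at 0 h, 8.50 and 8.47 at 6 h, 8.45 and 8.64 at 12 h, and 8.42 and 8.40 at 24 h. All 6 hypoxic arrays lay above both 0 h arrays. Only the 12 h change passed, at 0.32 ± 0.08 or 1.25-fold with limma adjusted p = 0.0336, beside 0.26 (adjusted p = 0.146) at 6 h and 0.18 (0.179) at 24 h. The 12 h call was lost without replicate 1 at 0 h (adjusted p = 0.0891), replicate 2 at 0 h (0.197), either 6 h array (0.0617) or replicate 2 at 12 h (0.14), and in the fit on the compared groups alone (0.0989).

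NOTCH2 had 4 probe sets and 0 calls. Probe set 202443_x_at read 11.60 and 11.65 at 0 h, 11.76 and 11.67 at 6 h, 11.79 and 11.75 at 12 h, and 11.63 and 11.56 at 24 h. Over the 4 probe sets the changes ran between -0.22 and 0.18, the lowest for 210756_s_at at 24 h (-0.22, adjusted p = 0.066). Under 3 alternatives limma called that probe set lower at 24 h. Adjusted p was 0.0379 without the dimmest 25% of probe sets, 0.0136 without the dimmer 50% and 0.015 with the intensity trend. With the trend, 202443_x_at and 212377_s_at were called higher at 12 h (0.15, 0.0239 and 0.14, 0.0445). NOTCH2 has near-identical partial copies in the genome, the NOTCH2NL genes, and signals of such probe sets may be shared with them.

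The JAG ligands differed in their calls: JAG2 rose on 1 of 2 probe sets at 12 h, and JAG1 had 4 probe sets and 0 calls. JAG2 32137_at read 8.45 and 8.40 at 0 h, 8.64 and 8.64 at 6 h, 8.72 and 8.75 at 12 h, and 8.55 and 8.75 at 24 h. Every hypoxic array was above both 0 h arrays. The 12 h change was 0.31 ± 0.08 or 1.24-fold with limma adjusted p = 0.034, and those at 6 and 24 h were 0.21 (adjusted p = 0.209) and 0.22 (0.0967). The 12 h call was lost with any 1 of the 6 arrays at 0, 6 or 12 h left out: adjusted p was 0.125 and 0.179 without replicate 1 and replicate 2 at 0 h, 0.0632 without either 6 h array, and 0.0607 and 0.105 without replicate 1 and replicate 2 at 12 h. Without replicate 1 at 24 h, the 24 h change was 0.33 with adjusted p = 0.0323.

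The other JAG2 probe set, 209784_s_at, gave changes of 0.15, 0.28 and 0.15, with adjusted p = 0.0505 at 12 h, just outside the threshold that 32137_at passed. Limma called it higher at 12 h without the dimmest 25% (0.0311) or the dimmer 50% (0.0103) of probe sets and with the intensity trend (0.017). It was also called after a further quantile normalization (0.0299), after centring each array (0.046) and with the replicate block (0.0472). In the fit on the compared groups alone it was not called. Without replicate 1 at 12 h its 12 h change was 0.35 with adjusted p = 0.0323. Both JAG2 probe sets thus had their highest mean at 12 h. Whether the JAG1 and JAG2 changes differ from each other was not tested.

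JAG1 is the ligand gene that is mutated in most cases of Alagille syndrome. Probe sets 209099_x_at and 216268_s_at gave differences from 0 h between -0.16 and -0.03 at the 3 times, and 209097_s_at between -0.09 and 0.07. The dim probe set 209098_s_at, brighter than only 17% of probe sets, read 4.73 and 4.66 at 0 h, 4.52 and 4.46 at 6 h, 4.40 and 3.91 at 12 h, and 4.44 and 4.71 at 24 h. Its 12 h change of -0.54 ± 0.15 had limma adjusted p = 0.0532, and it was called lower after a further quantile normalization (-0.59, 0.0462), after centring each array on its median (-0.53, 0.0493) and with the intensity trend (0.016). It rested on replicate 2 at 12 h: without replicate 1 at 12 h it was -0.78 with adjusted p = 0.00568.

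In the nuclear complex, RBPJ rose on both probe sets at 12 and 24 h. RBPJ is the protein that carries the Notch signal to DNA and that holds targets silent when no signal arrives. Probe set 207785_s_at read 10.72 and 10.81 at 0 h, 11.07 and 10.96 at 6 h, 11.16 and 11.16 at 12 h, and 11.21 and 11.11 at 24 h. Probe set 211974_x_at read 11.21 and 11.24 at 0 h, 11.44 and 11.36 at 6 h, 11.55 and 11.50 at 12 h, and 11.54 and 11.65 at 24 h. On both probe sets all 6 hypoxic arrays lay above both 0 h arrays.

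For 207785_s_at the change was 0.25 ± 0.07 at 6 h (limma adjusted p = 0.119), 0.39 ± 0.07 or 1.31-fold at 12 h (0.0102) and 0.40 ± 0.07 or 1.32-fold at 24 h (0.00957). For 211974_x_at it was 0.18 ± 0.06 at 6 h (0.197), 0.30 ± 0.06 or 1.23-fold at 12 h (0.0202) and 0.37 ± 0.06 or 1.29-fold at 24 h (0.00914). The 2 probe sets thus moved together in size and time. Without replicate 1 or 2 at 0 h the 12 h calls were lost on 207785_s_at (adjusted p = 0.0834 and 0.0509) and on 211974_x_at (0.123 and 0.104), and on 211974_x_at also without replicate 1 or 2 at 12 h (0.0597 and 0.0521). At 24 h 207785_s_at lost its call without replicate 1 at 0 h (0.0834) or replicate 1 at 24 h (0.051), and 211974_x_at without replicate 1 or 2 at 0 h (0.0751 and 0.0625).

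RBPJ has processed pseudogenes, and a suffix of s or x marks probe sets that may match more than 1 transcript, so how much of the signal is RBPJ itself is uncertain. MAML1, the coactivator that binds RBPJ and the receptor's intracellular domain, read between 9.72 and 9.84 on all 8 arrays of 202360_at. Its changes were -0.01, 0.07 and 0.01, with limma adjusted p of 0.967, 0.502 and 0.937.

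**Figure D2:**
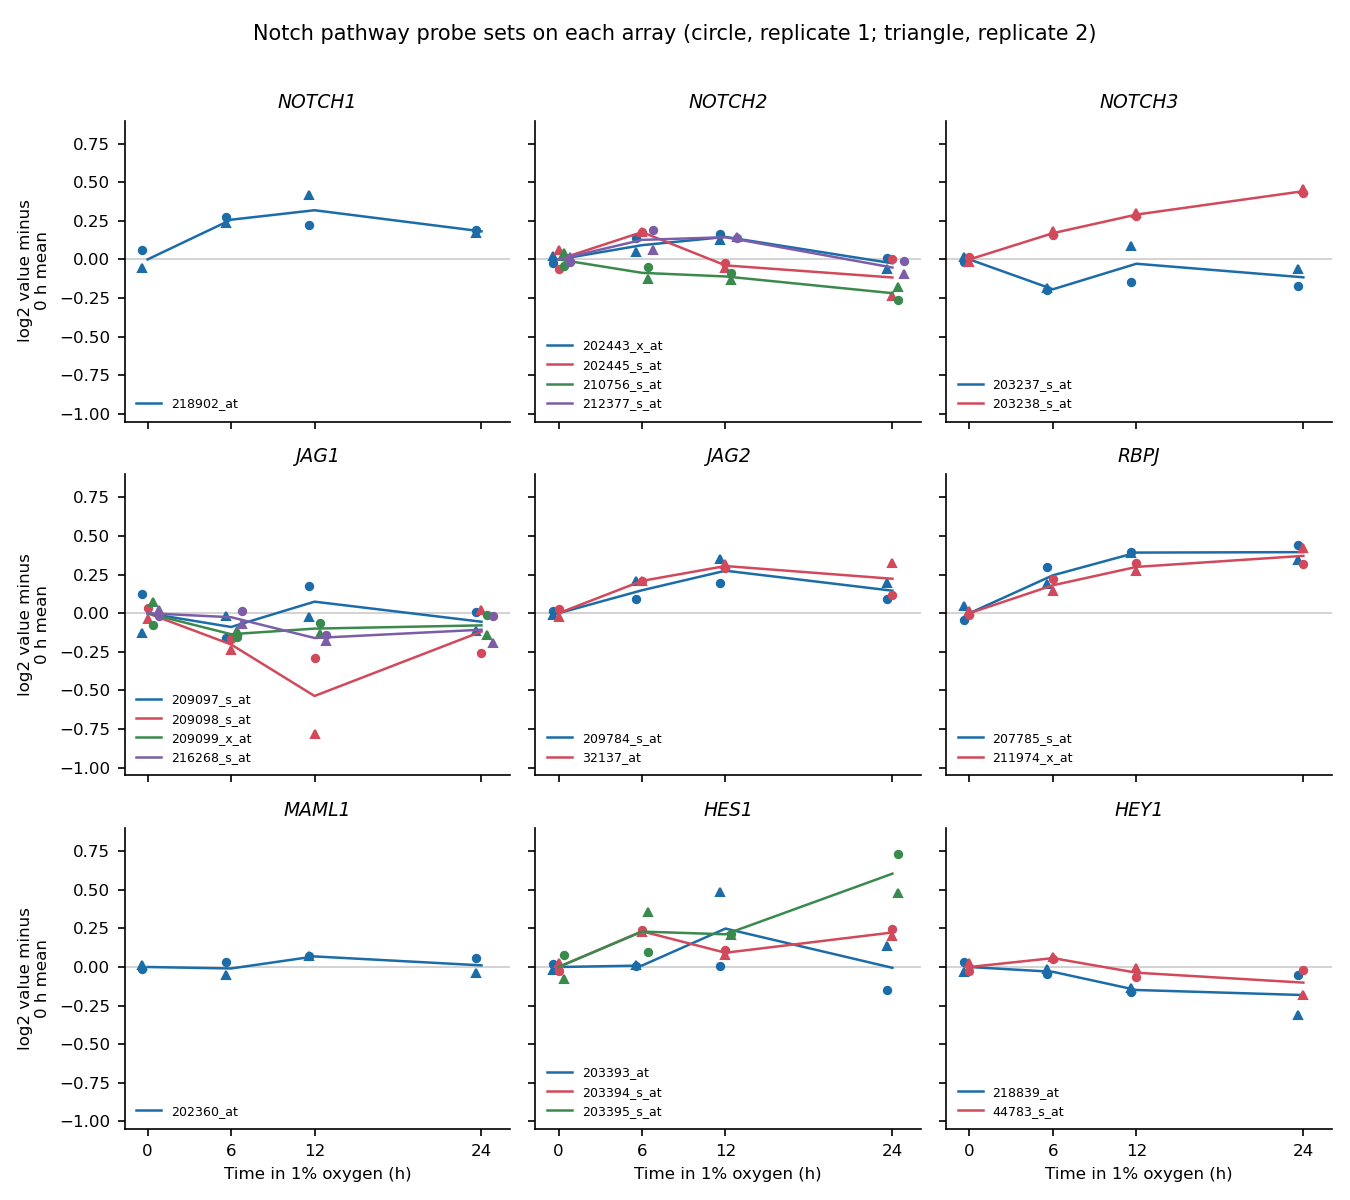
The plot of member values by array has 1 panel per gene, with the log2 value minus that probe set's 0 h mean against hours in 1% oxygen, a circle for replicate 1, a triangle for replicate 2 and a line through the means. The 2 NOTCH3 probe sets part in opposite directions, both RBPJ probe sets lie above 0 at every hypoxic time, and HES1 203395_s_at is farthest from 0 at 24 h, with a mean change of 0.60.

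Of the 2 target genes, HES1 rose at 24 h and HEY1 was not called. HES1 encodes a repressor that is known to oscillate and to silence its own promoter. Probe set 203395_s_at read 6.66 and 6.51 at 0 h, 6.68 and 6.94 at 6 h, 6.80 and 6.79 at 12 h, and 7.31 and 7.06 at 24 h. The 24 h arrays were the highest of the 8, and the 0 h arrays the lowest without overlap. The changes were 0.23 ± 0.11 (limma adjusted p = 0.359) at 6 h, 0.21 ± 0.11 (0.243) at 12 h, and 0.60 ± 0.11 or 1.52-fold at 24 h (0.0125).

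The 24 h call on 203395_s_at was lost without replicate 1 at 0 h (adjusted p = 0.0503), replicate 2 at 0 h (0.0957) or replicate 1 at 24 h (0.0726). Its differences between 24 h and the earlier hypoxic times, 0.38 against 6 h (adjusted p = 0.156) and 0.39 against 12 h (0.177), did not pass. A second HES1 probe set, 203394_s_at, read 7.63 and 7.68 at 0 h, 7.89 and 7.88 at 6 h, 7.76 and 7.73 at 12 h, and 7.90 and 7.86 at 24 h. Here 6 h and 24 h were about equally high, and 12 h lay between them and 0 h.

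For 203394_s_at the changes were 0.23 ± 0.06 at 6 h (limma adjusted p = 0.0841), 0.09 at 12 h (0.306) and 0.22 ± 0.06 or 1.17-fold at 24 h (0.0364). That 24 h call was the least firm of the member calls at 24 h: it was lost without any 1 of the 6 arrays at 0, 6 or 24 h, with adjusted p of 0.212 and 0.137 without replicate 1 and 2 at 0 h, 0.0678 without either 6 h array, and 0.101 and 0.0546 without replicate 1 and 2 at 24 h. The third HES1 probe set, 203393_at, was dim, brighter than only 7.82% of probe sets. Its differences from 0 h were 0.01, 0.25 and -0.01, and its 12 h arrays read 3.76 and 4.24. Without replicate 1 at 12 h its 12 h change was 0.49 with adjusted p = 0.0246.

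HEY1, a relative of HES1 that is known to be a target of Notch in many tissues, had lower means at 12 and 24 h on both probe sets, and no change passed. Probe set 218839_at read 8.02 and 7.96 at 0 h, 7.94 and 7.97 at 6 h, 7.82 and 7.86 at 12 h, and 7.94 and 7.68 at 24 h, with changes of -0.03, -0.15 and -0.18 (limma adjusted p of 0.91, 0.29 and 0.225). The other, 44783_s_at, gave 0.06, -0.04 and -0.10 (adjusted p of 0.754, 0.753 and 0.399). On 218839_at the lowest value was replicate 2 at 24 h, and without replicate 1 at 24 h the change there was -0.31 with adjusted p = 0.0405. At 24 h both called HES1 probe sets thus lay above 0 h and both HEY1 means below it, and the difference between the 2 genes was not tested.

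Between the hypoxic times limma called 0 of the 21 member probe sets in each of 3 comparisons. The share of all probe sets called was 1.48% for 24 h against 6 h, 0.117% for 12 h against 6 h and 0.144% for 24 h against 12 h. At an unadjusted p under 0.05, 3 members were higher and 2 lower at 24 h than at 6 h, where 16.9% of all probe sets passed in either direction. For 12 h against 6 h it was 0 higher and 2 lower, beside 20.9% of all probe sets, and for 24 h against 12 h 4 higher and 2 lower, beside 16.4%. The times at which the members were called are therefore given as calls against 0 h and not as differences between hypoxic times.

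A list of 56 further Notch pathway genes was followed by role, of which 40 had a probe set with their symbol alone, 78 probe sets in all. This list too was chosen with earlier results of these data known, so its shares are a description only. At 6 h 1 probe set had risen and 0 had fallen. At 12 h 7 probe sets of 5 genes had risen and 10 of 8 genes had fallen, and at 24 h 7 of 4 genes had risen and 10 of 7 genes had fallen. The medians were -0.03, -0.05 and -0.05 at 6, 12 and 24 h. The calls made 1.28%, 21.8% and 21.8% of the 78 probe sets at 6, 12 and 24 h, beside 2.7%, 16.2% and 14.7% of all probe sets. Over the 3 times these are 35 calls, and leaving out 1 array lost most of them where that array was at 0 h: 31 without replicate 1 (limma adjusted p of 0.0541 to 0.247) and 32 without replicate 2 (0.0627 to 0.26). The loss was 14 without either 6 h array (0.0503 to 0.186 without replicate 1 and 0.0503 to 0.177 without replicate 2), 7 and 12 without replicate 1 and 2 at 12 h (0.0554 to 0.118 and 0.0554 to 0.187), and 11 and 6 without replicate 1 and 2 at 24 h (0.0547 to 0.144 and 0.061 to 0.178). The 1 call made whichever array was left out was that of ITCH 209744_x_at at 24 h.

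**Figure D3:**
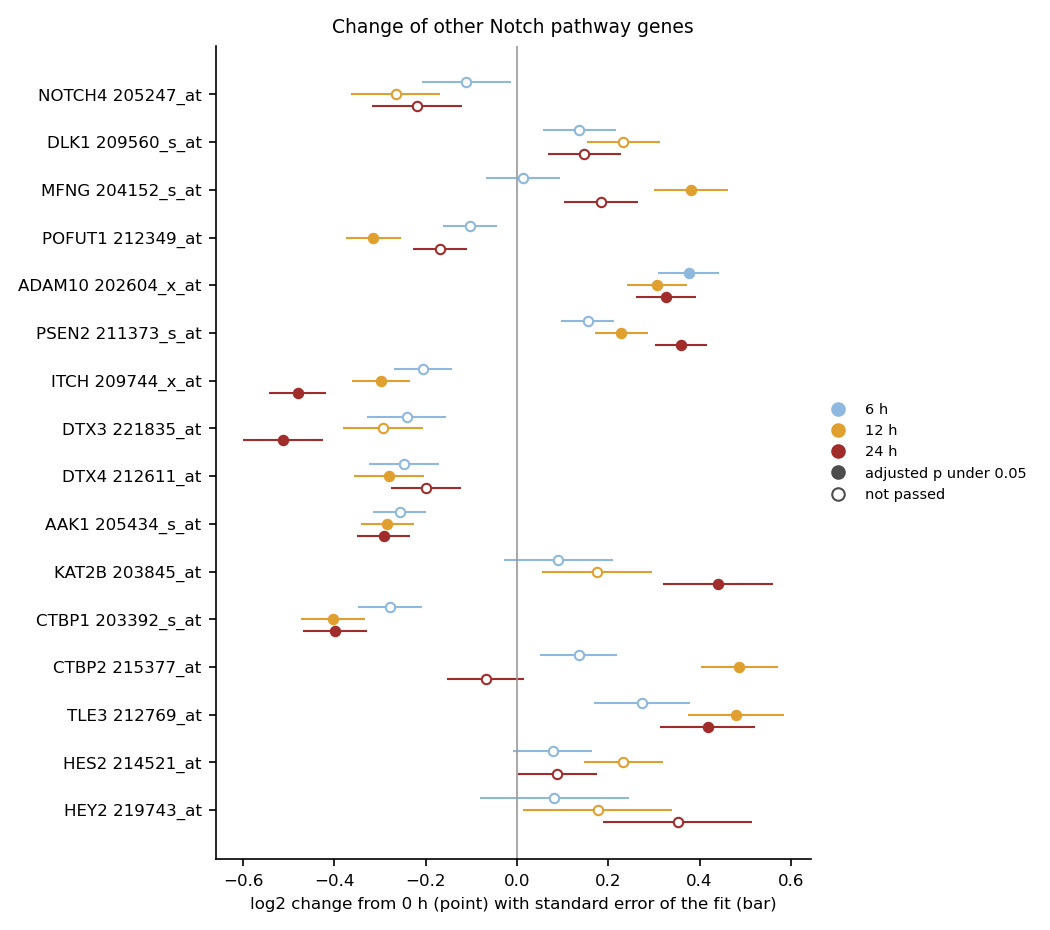
The plot of pathway changes gives the log2 change from 0 h at 6, 12 and 24 h for 1 probe set of each named pathway gene, with bars for the standard error of the limma fit and filled points for adjusted p under 0.05. Each gene's probe set was chosen for the largest change, among called ones where its group had any. In the endocytosis and turnover group the chosen probe sets of ITCH, DTX3, DTX4 and AAK1 lie below 0 at all 3 times. Of all 17 probe sets of that group, 5, 4 and 2 were above 0 h at 6, 12 and 24 h. ADAM10 has the only filled point at 6 h.

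Among the 3 other receptors and ligands measured, 0 were called. The receptor NOTCH4 (205247_at) gave changes of -0.11, -0.27 and -0.22, and DLK1, an inhibitory relative of the ligands, gave 0.14, 0.23 and 0.15. The genes that modify and cut receptors had 22 probe sets of 13 genes. In that group 4 probe sets rose and 3 fell at 12 h, and 3 rose and 1 fell at 24 h. The calls made 31.8% and 18.2% of the group at 12 and 24 h, beside 16.2% and 14.7% of all probe sets.

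ADAM10, the protease that makes the first activating cut, was the one pathway gene called at 6 h. Its 202604_x_at read 9.11 and 9.17 at 0 h, 9.49 and 9.54 at 6 h, 9.47 and 9.43 at 12 h, and 9.53 and 9.41 at 24 h. All 6 hypoxic arrays lay above both 0 h arrays. The changes were 0.38 ± 0.07 (limma adjusted p = 0.031), 0.31 (0.0203) and 0.33 (0.0167). Probe set 214895_s_at rose at 12 h (0.21, adjusted p = 0.0404) and 24 h (0.25, 0.0232), and 202603_at was not called. Without replicate 1 or 2 at 0 h the calls on 202604_x_at were lost, with adjusted p of 0.243 and 0.17 at 6 h, 0.134 and 0.0885 at 12 h, and 0.12 and 0.0781 at 24 h. They were also lost at 6 h without replicate 1 or 2 at 6 h (0.186 and 0.177), at 12 h without replicate 1 or 2 at 12 h (0.0554 and 0.0568), and at 24 h without replicate 1 at 24 h (0.0646).

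PSEN2, a catalytic subunit of γ-secretase, rose on 211373_s_at at 12 h (0.23, limma adjusted p = 0.0348) and 24 h (0.36 ± 0.06, 0.0068), while its other 2 probe sets were not called. MFNG, which adds sugars to NOTCH receptors, rose at 12 h by 0.38 ± 0.08 (0.0193) on 204152_s_at, and its other 2 probe sets were not called. POFUT1, the enzyme that adds fucose to NOTCH receptors, fell by 0.31 at 12 h (0.0132) on 212349_at, and its other probe set was not called. To complete the count, RFNG, a relative of MFNG, fell by 0.26 at 12 h (0.0294), and FURIN, a protease that matures NOTCH receptors, fell by 0.24 at 12 h (0.0288) and 0.29 at 24 h (0.0146), both named after their values were seen. All of these calls were lost without either 0 h array, and those of RFNG and FURIN at 12 h also after a further quantile normalization (0.0625 and 0.0605).

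The endocytosis and turnover group, 17 probe sets of 7 genes, had 0 probe sets higher and 5 lower at 12 h and 0 higher and 6 lower at 24 h, beside the 9.85% and 7.8% of all probe sets called lower at these times. ITCH, a ubiquitin ligase known to act on NOTCH receptors, fell on all 3 of its probe sets at both times. Its 209744_x_at read 9.30 and 9.40 at 0 h, 9.11 and 9.17 at 6 h, 9.09 and 9.01 at 12 h, and 8.88 and 8.86 at 24 h. Every hypoxic array lay below both 0 h arrays, and the 24 h arrays were lowest. On that probe set ITCH fell by 0.30 at 12 h (limma adjusted p = 0.0199) and by 0.48 ± 0.06 at 24 h (0.0032). The other 2, 209743_s_at and 217094_s_at, fell by 0.43 (0.00954) and 0.33 (0.0102) at 12 h and by 0.31 (0.0329) and 0.39 (0.0052) at 24 h. At 12 h the call on 209744_x_at was lost without replicate 1 or 2 at 0 h (0.0684 and 0.143) or replicate 2 at 12 h (0.0883), and those on the other 2 without either 0 h array. At 24 h 217094_s_at lost its call without replicate 1 at 0 h (0.0541), and 209743_s_at without either 0 h, 6 h or 24 h array (0.0635 to 0.177).

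DTX3, of the Deltex family of ubiquitin ligases, fell at 24 h by 0.51 ± 0.09 on 221835_at (limma adjusted p = 0.00868) and by 0.30 on 49049_at (0.0468), and its other 2 probe sets were not called. DTX4, a second Deltex gene, fell by 0.28 at 12 h (0.046), a call lost after a further quantile normalization (0.0915). AAK1, a kinase of clathrin adaptors that is known to bind NUMB, fell on 1 of 5 probe sets by 0.28 at 12 h (0.0173) and 0.29 at 24 h (0.0159). Among genes of this group with more than 1 probe set, ITCH was the one whose probe sets were all called. The DTX3 call on 221835_at was lost without replicate 2 at 0 h (0.0759), and those of 49049_at, DTX4 and AAK1 were lost without either 0 h array.

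The nuclear complex group had 32 probe sets of 14 genes, with 3 higher and 2 lower at 12 h and 4 higher and 3 lower at 24 h. These calls made 15.6% and 21.9% of the group, beside 16.2% and 14.7% of all probe sets, so the 12 h share was near that of all probe sets. TLE3, a Groucho-type corepressor that HES proteins recruit, rose on 212769_at by 0.48 ± 0.10 at 12 h (limma adjusted p = 0.0217) and 0.42 at 24 h (0.0356), on 212770_at by 0.37 (0.0326) and 0.35 (0.0389), and on 206472_s_at by 0.36 at 24 h (0.0468). KAT2B, a histone acetyltransferase, rose at 24 h by 0.44 ± 0.12 (0.0472), and had adjusted p = 0.061 after a further quantile normalization. The corepressor CTBP1 fell on 203392_s_at by 0.40 at 12 h (0.00929) and 24 h (0.00947), with 2 other probe sets not called. Its relative CTBP2 rose at 12 h on 215377_at (0.49 ± 0.08, 0.00954) and was not called on its other 5 probe sets. The acetyltransferases EP300 and CREBBP, which the Notch complex recruits, fell at 24 h by 0.36 (0.0341) on 202221_s_at and 0.31 (0.036) on 202160_at, and SNW1, a bridging factor of the RBPJ complex, fell by 0.29 at 12 h (0.014) on 215424_s_at. Each of these 3 has a second probe set that was not called, and they were named after their values were seen. The CTBP2 call was lost without replicate 1 at 0 h (0.0758) and both TLE3 calls on 212769_at without replicate 2 at 0 h (0.115 and 0.186). On that probe set the 12 h call was also lost without replicate 2 at 12 h (0.0678), and the 24 h call without either 6 h array (0.0654) or replicate 1 or 2 at 24 h (0.0758 and 0.145). The other calls of this group were lost without either 0 h array. Of the 4 target probe sets (3 genes) 0 were called, with changes for HEY2 of 0.08, 0.18 and 0.35 and for HES2 of 0.08, 0.23 and 0.09.

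The genes whose pattern over the 8 arrays was most like that of NOTCH3, RBPJ and HES1 were looked for among probe sets called in the F-test, which share the same arrays. NOTCH3 203238_s_at was most like IGBP1 (Pearson r = 0.997), whose changes were 0.22, 0.38 and 0.55, and IGFBP2 (r = 0.995), a secreted binder of insulin-like growth factors, with changes of 0.60, 1.11 and 1.60. RBPJ 207785_s_at was most like ALG13 (r = 0.993; 0.29, 0.52 and 0.51) and TBC1D9B (r = 0.991; 0.31, 0.44 and 0.43). HES1 203395_s_at was most like SRD5A1 (r = 0.967; 0.14, 0.15 and 0.36) and VWA5A (r = 0.957; 0.11, 0.08 and 0.30). Each is the best of 2429 or 2430 candidates over 8 arrays and is a description only. IGFBP2 changed more than NOTCH3 at each time, although the pattern was nearly the same.

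**Figure D4:**
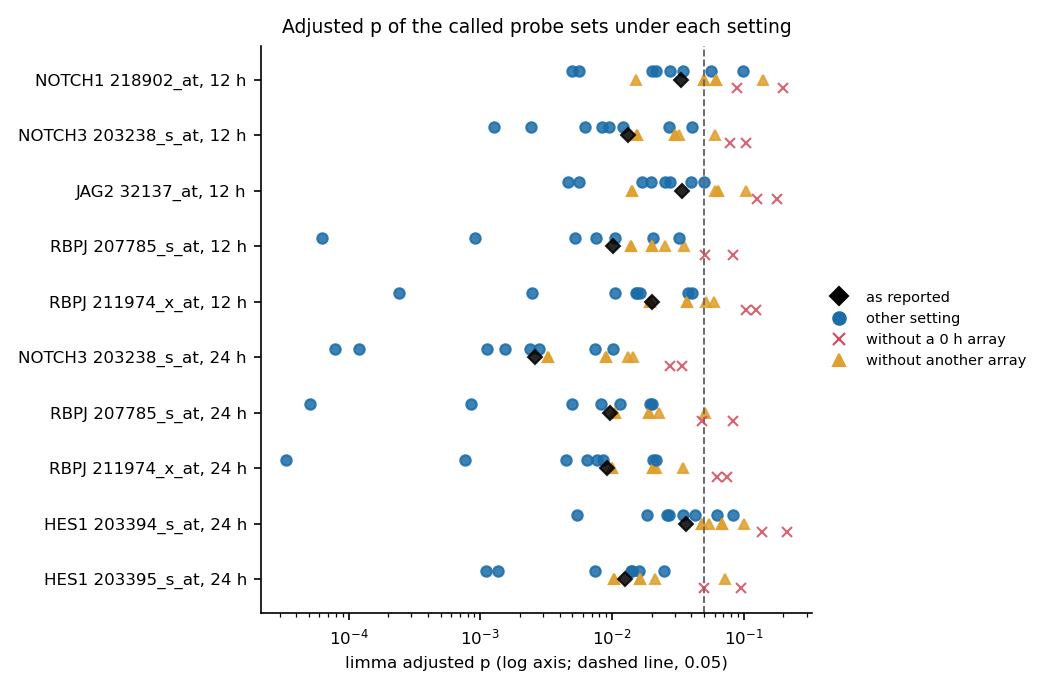
The plot of calls by setting gives limma's adjusted p on a log axis for each member probe set called at 12 or 24 h, as reported (diamond), under the other settings (circle), without an array at 0 h (cross) and without any other array (triangle), with a dashed line at 0.05. NOTCH3 203238_s_at at 24 h stays left of the line throughout, while all crosses of the 5 calls at 12 h lie right of it.

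In bulk RNA such as this, fewer cells that carry a transcript and less of it in each cell cannot be told apart. The control probe sets also differed between the times. The mean of 27 spiked poly-A controls was higher than at 0 h by 0.41, 0.38 and 0.58 at 6, 12 and 24 h. That of 18 hybridisation controls was higher by 0.25, 0.19 and 0.19. The 5′ probe set of 28S ribosomal RNA differed from 0 h by -0.60, -0.95 and -1.01, and that of 18S by -0.08, -0.09 and 0.03. Their part in the Notch results was not tested.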

How the data were processed

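Expression was measured in SJRH30 cells on 8 Affymetrix arrays, 2 at each of 0, 6, 12 and 24 h, grouped by the sample titles. The deposited log2 values are RMA summaries from the authors, per the submitters' processing notes, whose version is not given in the sources used here. RMA in its usual form makes probe distributions equal between arrays, so a change is relative to the other transcripts of an array. Depth has no meaning for arrays; their number limits the precision.

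The table held 22277 probe sets (2.72 to 14.5). The platform annotation of 2016 gave 19070 of them 1 symbol, 1043 several, and did not list 2108 that are not controls. Group means were fitted to all 8 arrays over 22215 probe sets with limma 3.58.1 (lmFit, eBayes) in R 4.3.3, with 4 residual and 3.7 prior degrees of freedom and no filter on dim probe sets. Tests were two-sided, with Benjamini-Hochberg adjustment over all probe sets of a comparison and calls at adjusted p under 0.05. The fit was tested on simulated data. SE is that of the fit. Its variance pools the spread between the 2 arrays of a time over all times and is drawn toward that of all probe sets. The p-values set a change against that variance and not against the spread at the compared times alone.

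All member probe sets are named. Of the other pathway genes, up to 4 per role with the largest change among called probe sets are named (2 where none was called), and for each member called in the F-test the 2 most correlated genes called there. Members and lists were chosen with earlier results of these data known. Marker lists covered muscle, fibroblast, endothelial, leukocyte and epithelial genes, with list means of 8.24 to 8.39, 5.87 to 5.98, 5.21 to 5.41, 4.06 to 4.30 and 4.89 to 5.14 over the 8 arrays. The alternatives were 2 filters on dim probe sets, a further quantile normalization, median centring, an intensity trend, 1 probe set per gene, fits to the compared groups alone, a replicate block and leaving out each array.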

Additional observations from a re-analysis of the deposited data

How the results depend on the processing

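Single probe sets of members, other pathway genes and hypoxia check genes such as BNIP3 were followed under the alternatives. Of their values, 0 reversed a call under any alternative, 201 lost a call, 79 gained one and 2315 did neither. Cell type markers and the most correlated genes were not followed there. NOTCH3 203238_s_at at 24 h was called under all 8 alternatives and with each array left out. With 2 arrays a time, an array left out leaves 1, which is assumed to vary like the other times. The cause of the moves below was not tested, except that 1 probe set per gene tests 11963 genes and fits to 2 groups use fewer arrays.

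Member calls at 6 h were 1 without the dimmest 25% of probe sets, 5 without the dimmer 50% and 4 with the intensity trend. At 12 h the trend gave 9, and at 24 h 1 probe set per gene gave 3. The F-test called 10 without the dimmer 50%, 9 with the trend and 2 with the replicate block. For 24 h against 6 h, 1, 3, 3 and 1 members were called under the 25% filter, the 50% filter, the trend and 1 probe set per gene, and for 24 h against 12 h 1 under the 50% filter and 2 with the trend. With 1 array left out, member calls ran from 0 to 6 at 12 h, 1 to 5 at 24 h, 0 to 6 in the F-test, and 0 to 1 for 12 h against 6 h and for 24 h against 12 h.

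Over all probe sets, calls at 6 h (600) were 1051, 2078, 1911 and 334 under the 25% filter, the 50% filter, the trend and the replicate block, and 84 to 650 with an array left out. At 12 h (3602) 1 probe set per gene gave 2202, the 2 groups alone 2294, and leaving an array out 857 to 3949. At 24 h (3257) they were 2123 per gene and 951 to 3516 with an array left out. The F-test (2796) gave 5101 and 5533 under the 50% filter and the trend, and 417 to 3668 with an array left out. Calls for 24 h against 6 h (328) were 768, 1537 and 1568 under both filters and the trend, 129 with the block, 171 from the 2 groups alone and 19 to 452 with an array left out. For 12 h against 6 h (26) these were 236, 1231, 1241, 0, 0 and 0 to 1117. For 24 h against 12 h (32) they were 185, 709, 711, 0, 0 and 0 to 302, with 74 after quantile normalization and 62 after centring.

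The replicate numbers do not pair the arrays: deviations of same-numbered arrays correlated at -0.13 to 0.08. The replicate block lost the member calls of NOTCH1 (adjusted p = 0.0568) and JAG2 32137_at (0.0503) at 12 h and HES1 203394_s_at at 24 h (0.0624), and the fit to the compared groups alone lost NOTCH1 (0.0989) and HES1 203394_s_at (0.0828). The block also called JAG2 209784_s_at higher at 12 h (limma adjusted p = 0.0472). Of the 35 calls on other pathway probe sets the block lost 12 (0.0508 to 0.0735), ADAM10 202604_x_at at 6 h (0.0648) among them.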
